A study of Rattus norvegicus with 6 samples.

Results

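The chemokines and chemokine receptors were taken as the features whose name starts with Ccl, Cxcl, Cx3cl, Xcl, Ccr, Cxcr, Cx3cr or Xcr followed by a digit. The table of 27321 features held 48 of them: 18 CC ligands, 9 CXC ligands, Cx3cl1, Xcl1, 18 receptors and 1 joint feature named Ccl3,Ccl4 whose reads belong to neither gene alone. RNA-seq was performed on the inner medullary tip (IM tip, the end of the kidney inner medulla nearest the papilla) of male Sprague-Dawley rats aged 3 months. Control rats (n = 3) received citrate buffer vehicle by tail vein and diabetic rats (n = 3) received streptozotocin (STZ) at 62.5 mg/kg by the same route. Tissue was collected from both groups at 15 days. STZ destroys the insulin-producing beta cells of the pancreas, so the rats model insulin-deficient diabetes at an early stage. The labels number the libraries within a group and do not say whether a library pooled animals, and p-values measure the spread between these libraries.

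Chemokines are small secreted proteins that guide the movement of leukocytes and act through receptors coupled to inhibitory G proteins. The CC family mostly attracts monocytes, T cells and dendritic cells. The CXC family includes neutrophil attractants and the interferon-induced ligands of Cxcr3, a receptor of activated T cells and NK cells. In kidney, tubule epithelium, endothelium and resident macrophages can all secrete chemokines, and Ccl2 (monocyte chemoattractant protein 1) is the member most often studied in diabetic nephropathy.

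Promoter sequences are given for the 3 members that passed the test of STZ against control (Ccl7, Cxcl10 and Ccl20) and for their cluster neighbours Ccl12, Cxcl9 and Cxcl11, since the NF-kB, interferon and AP-1 factors that act on chemokine promoters are known to bind close to the start site. Each sequence is the 250 bases before the RefSeq transcription start, 5′ to 3′ on the plus strand of the GRCr8 assembly. The positions are chr10:67513845-67514094 for Ccl7, chr10:67567626-67567875 for Ccl12, chr14:15988816-15989065 for Cxcl10, chr14:15973478-15973727 for Cxcl11, chr14:16006916-16007165 for Cxcl9 and chr9:91836909-91837158 for Ccl20. Capitals mark matches on either strand to the NF-kB consensus, the interferon-stimulated response element (ISRE), the AP-1 site (TGANTCA) or the TATA box (TATAAA).
Ccl7: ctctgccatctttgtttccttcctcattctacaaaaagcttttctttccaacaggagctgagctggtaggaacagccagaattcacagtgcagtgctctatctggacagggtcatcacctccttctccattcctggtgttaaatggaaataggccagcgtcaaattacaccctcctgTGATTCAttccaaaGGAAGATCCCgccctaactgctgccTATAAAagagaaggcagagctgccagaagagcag
Ccl12: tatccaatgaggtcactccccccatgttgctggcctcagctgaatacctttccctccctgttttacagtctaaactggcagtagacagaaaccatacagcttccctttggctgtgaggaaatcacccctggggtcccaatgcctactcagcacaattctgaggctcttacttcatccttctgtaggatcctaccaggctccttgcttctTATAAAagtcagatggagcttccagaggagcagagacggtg
Cxcl10: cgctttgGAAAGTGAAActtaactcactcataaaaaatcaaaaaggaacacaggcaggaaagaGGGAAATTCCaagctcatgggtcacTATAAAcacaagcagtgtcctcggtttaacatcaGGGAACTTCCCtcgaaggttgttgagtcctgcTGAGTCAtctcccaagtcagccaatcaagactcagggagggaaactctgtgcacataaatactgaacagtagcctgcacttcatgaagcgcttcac
Cxcl11: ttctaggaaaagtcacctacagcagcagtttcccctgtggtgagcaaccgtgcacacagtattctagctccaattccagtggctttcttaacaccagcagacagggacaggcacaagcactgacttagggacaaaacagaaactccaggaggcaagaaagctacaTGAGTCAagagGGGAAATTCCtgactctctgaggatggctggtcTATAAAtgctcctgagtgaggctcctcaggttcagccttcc
Cxcl9: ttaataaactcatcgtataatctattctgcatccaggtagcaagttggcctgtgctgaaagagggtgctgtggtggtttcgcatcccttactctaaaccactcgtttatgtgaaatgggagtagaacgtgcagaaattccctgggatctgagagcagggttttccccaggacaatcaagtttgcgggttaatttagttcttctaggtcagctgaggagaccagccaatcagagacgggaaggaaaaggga
Ccl20: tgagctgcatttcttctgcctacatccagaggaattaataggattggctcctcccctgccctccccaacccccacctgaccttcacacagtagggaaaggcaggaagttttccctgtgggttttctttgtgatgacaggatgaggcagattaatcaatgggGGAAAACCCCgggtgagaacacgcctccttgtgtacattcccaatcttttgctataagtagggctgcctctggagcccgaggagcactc

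In the Ccl7 promoter an NF-kB match on the minus strand lay 59 to 50 bases before the start, beside an AP-1 match at 73 to 67 bases and a TATA match at 34 to 29. The Ccl12 window held a TATA match at 41 to 36 bases and none of the other motifs. Cxcl10 had the only ISRE match of these 6, at 243 to 234 bases, with NF-kB matches at 187 to 178 and at 128 to 119, the latter overlapped by a match on the other strand at 127 to 118. Its AP-1 match lay at 96 to 90 bases and its TATA match at 162 to 157. Cxcl11 had NF-kB letters at 74 to 65 bases, AP-1 letters at 85 to 79 and TATA letters at 41 to 36, and the Cxcl9 window held none of the 4 motifs. Ccl20 held an NF-kB match on the minus strand at 89 to 80 bases. Promoters were found for 35 of the 48 members. The NF-kB consensus occurred in 9 of these 35 and in 6.33% of all 33469 promoters of this length. The AP-1 letters occurred in 6 of the 35 and in 6.34% of all promoters, the TATA letters in 12 and 12.9%, and the ISRE in 2 (Ccl19 and Cxcl10) and 3.41%. A match describes letters in this window and is not evidence of binding.

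Depth and background were similar in range in both groups. Reads assigned to features numbered between 3412311 and 5575171 per library, and 1 read was worth 0.763 to 1.11 normalized counts. The 95th percentile of 836 olfactory receptor genes, taken as background, was 2.05, 6.29 and 10.02 normalized counts in the controls and 1.86, 5.93 and 9.03 in STZ. Here and elsewhere the values of a group follow the order of replicates 1, 2 and 3. The column names place all 3 control libraries in sequencing lane 3 and the STZ libraries in lanes 7, 6 and 8, so lane and group cannot be told apart. The collecting duct markers Aqp2, Aqp3 and Fxyd4 stood at 2137 normalized counts or more in every library, so collecting duct RNA was present. Aqp4 was at 3787 or more, while Scnn1g lay between 64.1 and 201 and Hsd11b2 between 21.4 and 57.4. These markers do not show which part of the kidney was sampled. Markers of thick ascending limb and proximal tubule were also counted in every library, and whether tissue beyond the tip was included was not tested.

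A member was called above background in a library if it had more than 3 reads and exceeded that library's olfactory percentile. By this measure 14 of the 48 members were above background in all 6 libraries, 19 were in all libraries of at least 1 group and 20 were in none. The 14 were 7 CC ligands (Ccl2, Ccl7, Ccl12, Ccl5, Ccl4, Ccl6 and Ccl19), the CXC ligands Cxcl9, Cxcl10 and Cxcl11, the CX3C ligand Cx3cl1, and the receptors Cxcr7, Cx3cr1 and Cxcr3. Another 13 members had at most 3 reads in every library: Ccl1, Ccl17, Ccl21, Ccl22, the joint feature, Cxcl2, Cxcl6, Ccr4, Ccr8, Ccr9, Ccr10, Ccr1l1 and Xcr1. The main neutrophil attractant genes of the CXC family were thus low or at the floor, with Cxcl2 at 0 or 1 read in each library and Cxcl1 between 2.97 and 18.5 normalized counts.

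**Figure D1:**
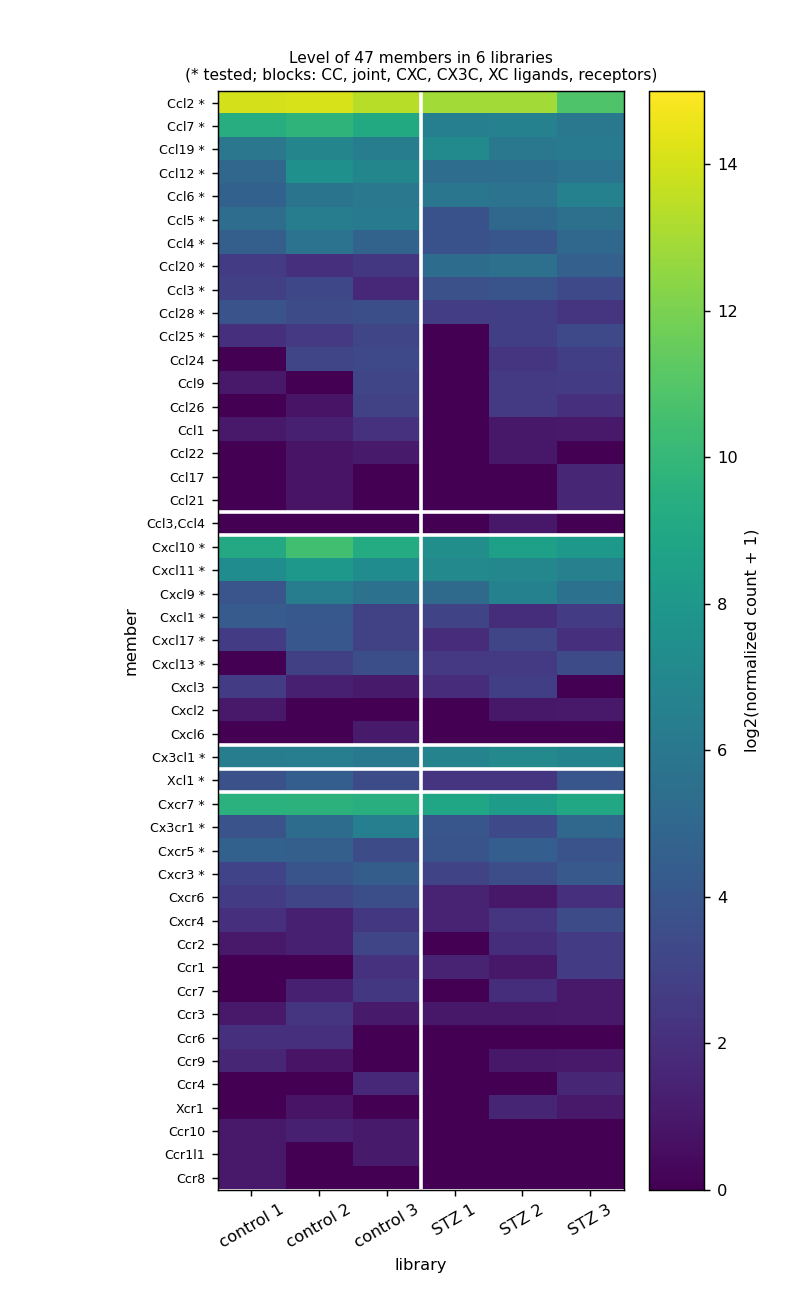
Heat map of 47 members (rows, grouped into CC ligands, the joint feature, CXC, CX3C and XC ligands and receptors) in the 3 control and 3 STZ libraries (columns), with colour giving log2(normalized count + 1) and an asterisk marking the 23 tested members shown. Ccl7 and Cxcl10 are brighter in the control columns, Ccl20 is brighter in the STZ columns, and 13 members are dark in every library.

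Changes were tested with limma on log2(normalized count + 1) for features averaging 5 or more normalized counts over the 6 libraries, with Benjamini-Hochberg adjustment over all 13486 features tested. Of the 48 members, 24 passed this filter and 24 did not. Just outside it were Cxcr4, Ccl24 and Cxcr6 at means of 4.15, 4.42 and 4.96, and just inside were Ccl25, Cxcl13 and Cxcl17 at 5.07, 6.14 and 6.92. At an adjusted p under 0.05, 3 of the 24 tested members were called (12.5%), against 2.10% of all features. Ccl7 and Cxcl10 fell (2 of 24, against 0.927% of all features called lower) and Ccl20 rose (1 of 24, against 1.17% called higher). The study had already listed Ccl7 among its most changed genes from these libraries, and Ccl20 passed the filter only through its STZ values. The share of members called is therefore not an independent result. Values of the groups did not overlap in 9 of 24 members, against 20.3% of all features. These were 6 members lower in STZ (Ccl7, Ccl2, Ccl28, Cxcl10, Cxcl11 and Cxcr7, against 10.3%) and 3 higher (Ccl20, Ccl3 and Cx3cl1, against 10.1%). The median log2 fold change (log2FC, STZ minus control) of the tested members was -0.72, with 17 below 0 and 7 above, while the median of all features was 0.0056 with 49.5% below 0. An unadjusted p under 0.05 was found for 8 of the 24, against 14.7% of all features. Standard errors of the log2FC lay between 0.21 and 0.96 (median 0.48), and the counts describe only the members that passed the filter. The number called was 1 without STZ replicate 2, where only Ccl7 passed, and 4 without control replicate 1, where Ccl12 passed too.

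**Figure D2:**
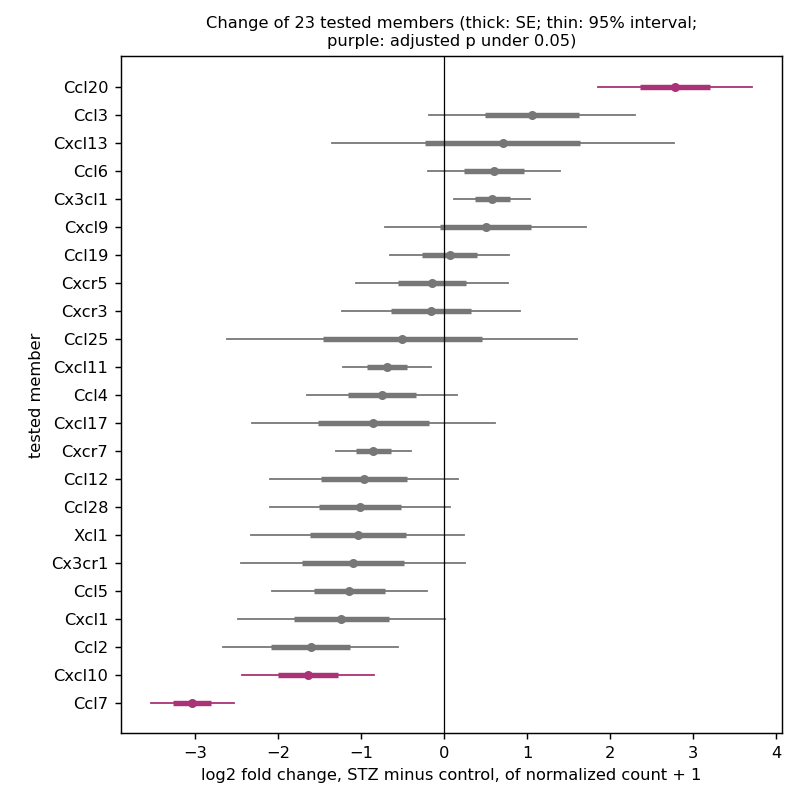
Log2FC (x axis, STZ minus control, on log2 of normalized count + 1) of 23 tested members (y axis, ordered by change), with the standard error as a thick bar, the 95% interval as a thin bar and members with an adjusted p under 0.05 in purple. Ccl7 at -3.04 and Ccl20 at 2.78 lie at the ends, and most intervals between them span 0.

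Ccl7 (monocyte chemoattractant protein 3), a ligand of Ccr1, Ccr2 and Ccr3 that draws monocytes out of bone marrow and into tissue, showed the largest fall among the members. Its level was 653, 850 and 550 normalized counts in the controls. In the STZ libraries it was 87.3, 94.95 and 64.2. Every STZ library was far below every control library, with means of 684 ± 153 and 82.2 ± 16.0 (SD, n = 3 each), 8.33 times lower in STZ. The log2FC was -3.04 (SE 0.23, 95% interval -3.54 to -2.54) with an adjusted p of 0.000117 by limma with Benjamini-Hochberg adjustment. It remained between -3.18 and -2.87 with any single library left out, and Ccl7 passed the test in 20 of 20 alternative settings. By an exact two-sided permutation test p was 0.1, the smallest that 3 against 3 libraries allow. The gene lies at chr10:70267280-70269131 in the rn4 coordinates of the deposited table.

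The rat genome holds Ccl7 within a run of CC chemokine genes on chromosome 10, and 5 other features lay within 500 kb of it. Ccl2, the founding ligand of Ccr2 and principal attractant of inflammatory monocytes, ends 9.22 kb before Ccl7. It stood at 16577, 17699 and 10535 normalized counts in the controls. The STZ libraries had 7603, 7614 and 1867. All 3 STZ values were below all 3 control values, STZ replicate 3 being the lowest, and the log2FC was -1.61 (SE 0.48, 95% interval -2.66 to -0.56). The adjusted p for Ccl2 was 0.124 by limma, so it did not pass. It passed in 3 of 20 settings, quantile normalization among them (adjusted p 0.0443). Without STZ replicate 3 its log2FC was -0.94.

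Ccl12, a monocyte attractant close in sequence to Ccl2, begins 51.9 kb after Ccl7. Its control values were 29.7, 184 and 119 normalized counts and its STZ values 39.9, 41.5 and 51.2. The groups overlapped because control replicate 1 was the lowest of all 6 libraries, and the log2FC was -0.97 (SE 0.52, adjusted p 0.433 by limma). Without control replicate 1 it was -1.73 with an adjusted p of 0.0191. Ccl1, a ligand of Ccr8 starting 112 kb after Ccl7, had 3 reads or fewer in each library. On the other side, the locus of Accn1, which encodes an acid-sensing ion channel, ends 77.1 kb before Ccl7. Accn1 had 7.18, 9.92 and 28.9 normalized counts in the controls and 36.2, 42.5 and 30.1 in the STZ libraries. Its STZ values all lay above its control values, with a log2FC of 1.41 (SE 0.45, adjusted p 0.154 by limma), or 1.97 with an adjusted p of 0.0173 without control replicate 3. Tmem132e, 315 kb after Ccl7, had at most 1 read. Of the 4 tested features in this window, 1 (Ccl7) passed the test as first described, against 2.10% of all features. The window was centred on Ccl7, so that call was fixed in advance, and none of its tested neighbours passed.

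**Figure D3:**
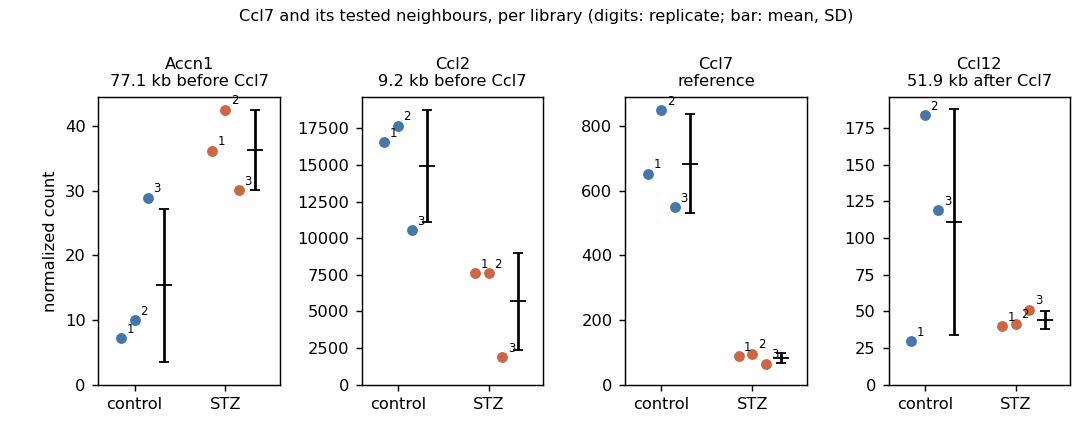
Normalized count (y axis, a separate scale from 0 for each gene) of Accn1, Ccl2, Ccl7 and Ccl12 in control and STZ libraries, numbered by replicate, with the mean and SD beside each group. Ccl7 and Ccl2 are lower in every STZ library, Ccl12 overlaps through control replicate 1, and Accn1 is higher in every STZ library.

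Ccl7 was also set against its nearest neighbours within each library, a ratio that removes only a shift of equal log2 size in both genes. Ccl7 had the largest fall of these genes, so a lower ratio in STZ follows from that and is not separate support. Reads of Ccl7 amounted to 3.94%, 4.81% and 5.22% of the reads of Ccl2 in the controls. The shares were 1.15%, 1.25% and 3.44% in the STZ libraries. Each STZ share was below each control share, STZ replicate 3 lying nearest the controls because its Ccl2 was low. The log2 ratio differed by -1.43 between the groups (exact two-sided permutation p 0.1, also 0.1 after adjustment over the 2 ratios compared). Against Ccl12 the reads of Ccl7 amounted to 2197%, 463% and 462% in the controls and 219%, 229% and 125% in STZ. Control replicate 1 stood apart because its Ccl12 was low, which enlarges the difference of the log2 ratio, -2.07 (exact permutation p 0.1, adjusted 0.1). Both ratios were lower in every STZ library than in every control library, and a smaller p cannot be reached with 3 libraries in each group.

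The other CC ligands above background included the second chromosome 10 cluster, chr10:71605790-71761115, which holds Ccl5, Ccl9, Ccl6, Ccl3 and Ccl4. Ccl5 (RANTES), which draws T cells and monocytes, had 39.98, 78.6 and 71.2 normalized counts in the controls and 13.0, 32.6 and 45.2 in STZ. STZ replicate 3 overlapped control replicate 1, and the log2FC of -1.15 (SE 0.42) reached an adjusted p of 0.223 by limma. For the inflammatory ligands Ccl3 and Ccl4 the estimates had opposite signs. Ccl3 was at 6.15, 8.39 and 2.23 normalized counts in the controls and 12.1, 13.8 and 9.03 in STZ, above background in 4 of 6 libraries, with a log2FC of 1.06 (adjusted p 0.434 by limma). Ccl4 was at 22.6, 51.1 and 26.7 against 13.0, 14.8 and 31.1, with overlap and a log2FC of -0.75. Ccl6, a macrophage-expressed ligand of Ccr1, had a log2FC of 0.60 with overlapping values between 24.6 and 95.4 normalized counts. Ccl9 had at most 7 reads and was not tested. None of the 4 tested genes of this cluster passed the test as first described.

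Ccl20, the ligand of Ccr6 and an attractant of dendritic cells and Th17 cells that epithelia can secrete, was the only member called higher in STZ. The controls had 5.13, 3.05 and 4.45 normalized counts, which were 5, 4 and 4 reads. The STZ libraries had 39.0, 44.5 and 23.1. All STZ libraries were above background, while among controls only replicate 1 was, so the control level is close to what the assay can detect. The log2FC was 2.78 (SE 0.42, 95% interval 1.86 to 3.70, adjusted p 0.00839 by limma with Benjamini-Hochberg adjustment). The means were 35.5 ± 11.1 in STZ and 4.21 ± 1.06 in the controls (SD, n = 3 each). Since the control mean was under 5, Ccl20 passed the filter through its STZ values, and its log2FC is measured against controls close to background. It passed in 18 of 19 settings that tested it. Without STZ replicate 2 the log2FC was 2.60 with an adjusted p of 0.0737, and at a minimum mean of 20 the gene was not tested. Its receptor Ccr6 had 3, 4 and 0 reads in the controls and 0 in each STZ library, which was too few for the filter on low values. In the 2 alternative settings that tested Ccr6 the log2FC was -1.35, and it was not called (adjusted p 0.431 and 0.599 by limma).

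The remaining CC ligands showed no called change. Ccl19, the lymph node homing ligand of Ccr7, was above background throughout at 60.5, 112 and 80.1 normalized counts in the controls and 139, 62.3 and 71.3 in STZ. Its log2FC was 0.06 (SE 0.33, 95% interval -0.66 to 0.78). Ccl28, a mucosal epithelial chemokine, had 13.3, 9.92 and 11.1 normalized counts in the controls and 5.57, 5.93 and 4.02 in STZ. These groups did not overlap, with a log2FC of -1.02 (SE 0.49) and an adjusted p of 0.376 by limma. Ccl25, Ccl24 and Ccl26 were at 9.03 normalized counts or less in every library.

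The Cxcr3 ligands Cxcl9, Cxcl10 and Cxcl11 lie together at chr14:17250639-17289652. All are classed as interferon-induced attractants of activated T cells, and Cxcl10 was the one called. Cxcl10 had 540, 1431 and 601 normalized counts in the controls. Its STZ values were 173, 349 and 251. The groups did not overlap, and replicate 2 was the highest library in both. The means of 857 ± 498 and 258 ± 88.4 (SD, n = 3 each) differed 3.33-fold, and the log2FC was -1.64 (SE 0.36, 95% interval -2.44 to -0.85) with an adjusted p of 0.0446 by limma with Benjamini-Hochberg adjustment. This call was close to the threshold and held in 12 of 20 settings. It was lost without control replicate 2 (log2FC -1.20, adjusted p 0.134), STZ replicate 1 (0.109), STZ replicate 2 (0.0574) or STZ replicate 3 (0.105), and also without the intensity trend (0.213), with robust moderation (0.0556), with equal library totals (0.0544) and with locus length (0.0799). The direction was the same in all 20.

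Cxcl11 had 156, 250 and 159 normalized counts in the controls and 131, 123 and 91.4 in STZ. Its groups did not overlap either, but the log2FC of -0.69 (SE 0.24) reached an adjusted p of 0.194 by limma and passed in 0 of 20 settings. Cxcl9 was at 14.4, 81.6 and 50.1 normalized counts in the controls and 35.3, 96.9 and 50.2 in STZ. Its values overlapped almost entirely, with a log2FC of 0.50 (SE 0.55, 95% interval -0.71 to 1.70), which turned to -0.20 without control replicate 1. The difference between the change of Cxcl10 and that of Cxcl9 was not tested. Their receptor Cxcr3 was low, at 7.18, 13.7 and 20.04 normalized counts in the controls and 7.43, 10.9 and 17.1 in STZ, with a log2FC of -0.16 (SE 0.49).

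**Figure D4:**
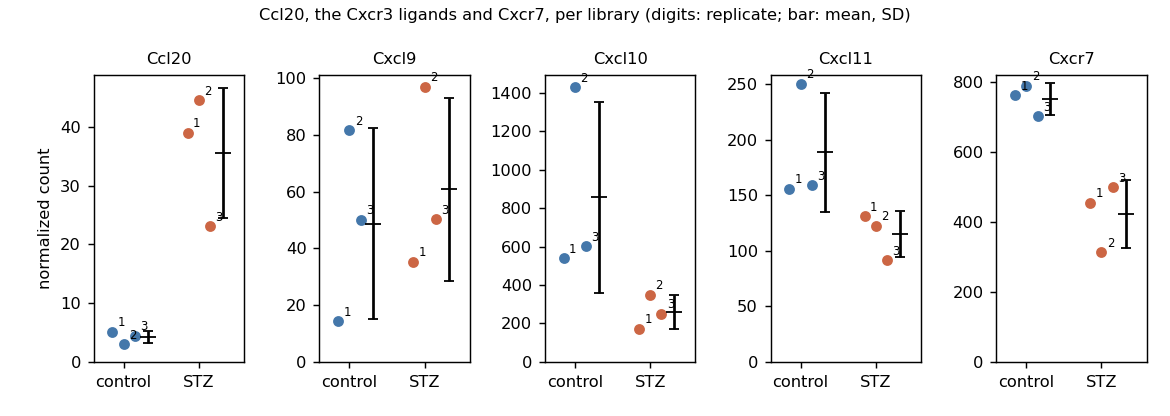
Normalized count (y axis, a separate scale from 0 for each gene) of Ccl20, Cxcl9, Cxcl10, Cxcl11 and Cxcr7 in control and STZ libraries, numbered by replicate, with the mean and SD beside each group. Ccl20 is higher in every STZ library, Cxcl10, Cxcl11 and Cxcr7 are lower in every STZ library, and Cxcl9 overlaps.

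Among the other CXC, CX3C and XC ligands, Cx3cl1 (fractalkine), a membrane-bound ligand of endothelium and epithelium that holds Cx3cr1-bearing monocytes, was at 76.9, 85.4 and 65.7 normalized counts in the controls. It was at 103, 131 and 107 in STZ, above every control, with a log2FC of 0.58 (SE 0.21) and an adjusted p of 0.215 by limma. Cxcl1, a neutrophil attractant, had 18.5, 16.8 and 6.68 normalized counts against 7.43, 2.97 and 5.02, a log2FC of -1.24 (adjusted p 0.342). Its cluster mates Cxcl2, Cxcl3 and Cxcl6 had at most 6 reads. Cxcl13, a B cell attractant, and Cxcl17, a mucosal chemokine, ranged from 0 to 16.0 normalized counts with 95% intervals that spanned 0. Xcl1 (lymphotactin), made by T cells and NK cells, had 12.3, 21.4 and 10.02 against 3.71, 3.96 and 15.1 normalized counts, with overlap through STZ replicate 3.

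Of the 18 receptors, 5 were tested and none passed by limma, while 1 had an unadjusted p under 0.05. That was Cxcr7, an atypical receptor which binds and removes chemokines such as Cxcl11 without G protein signalling. It had 763, 790 and 702 normalized counts in the controls and 455, 314 and 499 in STZ. The groups were well apart, with means of 752 ± 45.0 and 422 ± 96.9 (SD, n = 3 each), and the log2FC was -0.86 (SE 0.21, 95% interval -1.31 to -0.40). The adjusted p was 0.0623 by limma and 0.0760 by edgeR on the recovered reads, so Cxcr7 was not called. It passed in 6 of 20 settings, including DESeq2 (adjusted p 0.00540) and quantile normalization (0.0419).

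The receptors borne by leukocytes had few reads. Cx3cr1, carried by tissue macrophages and patrolling monocytes, had 13.3, 38.1 and 87.9 normalized counts in the controls and 14.9, 8.90 and 31.1 in STZ. The spread within the controls exceeded the difference between the groups, whose log2FC was -1.10 (SE 0.61, adjusted p 0.451 by limma). Cxcr5, the B cell and follicular T cell receptor for Cxcl13, was at 24.6, 22.1 and 10.02 against 13.9, 21.8 and 13.1, with a log2FC of -0.15 (SE 0.42). Cxcr6, a receptor of memory T cells and NKT cells, did not pass the filter on low values. It was above background in all 3 controls (5.13, 7.63 and 11.1 normalized counts) and in none of the STZ libraries (1.86, 0.989 and 3.01). These were 5, 10 and 10 reads against 2, 1 and 3. In the 2 alternative settings that tested Cxcr6 the log2FC was -1.60, and it was not called (adjusted p 0.285 and 0.480 by limma). Ccr2, the shared receptor of Ccl2, Ccl7 and Ccl12, had 1, 2 and 7 reads in the controls and 0, 3 and 5 in STZ, at or below background throughout. The other receptors of Ccl7, Ccr1 and Ccr3, had at most 5 reads. Xcr1, the receptor of Xcl1, had at most 2. Cxcr4, a receptor of leukocytes and progenitors, had between 2 and 10 reads, and Ccr7 had at most 4. Low-count receptors could not be compared at this depth.

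Replicate 1 was the lowest library of its group for many members. Control replicate 1 had the lowest control value in 14 of the 24 tested members (58.3%, against 33.0% of all features tested), and STZ replicate 1 had the lowest STZ value in 12 (50.0%, against 34.3%). Within their groups these libraries also had the lowest olfactory background (2.05 and 1.86 normalized counts) and the fewest features with 1 read or more (18268 and 18212). Summed pan-leukocyte markers (Ptprc, Cd53, Coro1a and Laptm5) were lowest in them too. That sum was 158, 375 and 433 normalized counts in the controls and 310, 314 and 417 in STZ, where replicates 1 and 2 were close. Macrophage and monocyte markers summed to 905, 2440 and 1900 in the controls and 1506, 1393 and 2230 in STZ, where replicate 2 was lowest. T cell and NK cell markers summed to 107, 221 and 295 against 122, 227 and 181. These 3 sums overlapped between the groups, and of the leukocyte list 50 of 59 genes were found, 35 were tested and 0 were called by limma or edgeR, with 2 at an unadjusted p under 0.05 (Cd14 and Msr1) and 1 called by DESeq2 (Cd14). Over all features limma called 2.10%, edgeR 2.13% and DESeq2 6.08%, and 14.7% had an unadjusted p under 0.05. Cd14, a monocyte and macrophage coreceptor, was at 216, 241 and 223 normalized counts in the controls and 148, 136 and 135 in STZ. Its log2FC was -0.70 (adjusted p 0.0751 by limma). Msr1 went the other way, at 15.4, 26.7 and 39.0 against 38.1, 47.5 and 54.2 normalized counts, with overlap. The log2FC of Msr1 was 0.84 (adjusted p 0.268 by limma). Of the 12 macrophage and monocyte genes tested, 8 had a log2FC above 0 and 4 below, with a median of 0.14. B cell markers summed to 346 to 452 normalized counts in the controls and 347 to 365 in STZ, neutrophil markers to 27.5 to 33.4 and 25.1 to 60.2, and dendritic cell markers to 39.0 to 91.5 and 64.1 to 99.4, again with overlap. The mast cell and eosinophil sum, mostly Kit, was barely apart, at 59.0 to 84.1 in the controls and 39.0 to 58.4 in STZ. Kit itself overlapped between the groups, with a log2FC of -0.44 (adjusted p 0.535 by limma). The defining markers Mpo and Mmp8 of neutrophils, Ms4a1 of B cells and Cpa3 of mast cells had at most 3 reads. The part of leukocyte content, or of the differences in background between libraries, in the chemokine levels was not tested. In bulk tissue, fewer cells of a type and less RNA per cell cannot be told apart.

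Markers of some kidney cells moved with the groups. Of 25 kidney marker genes tested, 7 were called (28.0%, against 2.10% of all features). The list was chosen with earlier results of these data known, so this share is not an independent result. Umod, Egf, Kap and Upk3a are among the most changed genes that the study listed from these same libraries. Umod and Egf, 2 of the 3 thick ascending limb genes, fell by 2.93 and 2.06 on the log2 scale, and the other, Slc12a1, had a log2FC of -1.47 (adjusted p 0.0732 by limma). Of the 2 proximal tubule genes Kap fell by 2.31, while Lrp2 overlapped between the groups with a log2FC of 0.29. Plvap, 1 of 4 endothelial genes, fell by 1.01. Of the others, Cdh5 and Tek had log2FCs of -0.56 and -0.61 and were not called, and Pecam1 overlapped at 0.04. Upk3a and Upk1b, 2 of the 4 urothelial genes, rose by 3.30 and 1.25. Upk2 had a log2FC of 0.96 and was not called (adjusted p 0.377 by limma), and Upk1a overlapped between the groups at 0.04. Pdgfra rose by 1.03, and the other 3 fibroblast and pericyte genes, Dcn, Pdgfrb and Col1a1, overlapped with log2FCs of -0.37, -0.16 and 0.05. The adjusted p-values of the 7 called genes ran from 0.000117 to 0.0489 by limma. Thick limb markers summed to 1099 to 1886 normalized counts in the controls and 210 to 597 in STZ, and urothelium markers, mostly Upk3a in STZ, to 79.3 to 124 and 420 to 501. The proximal tubule sum of 180 to 306 and 35.6 to 89.3 was mostly Kap. These 3 sums did not overlap, the thick limb and proximal tubule sums being lower in STZ and the urothelium sum higher. Collecting duct markers (32752 to 54577 against 42636 to 81669), thin limb markers (1430 to 1556 against 1512 to 2215), endothelial markers (1803 to 2611 against 1563 to 1987) and fibroblast and pericyte markers (7350 to 8971 against 4434 to 10633) overlapped. Their part in the chemokine changes was not tested.

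**Figure D5:**
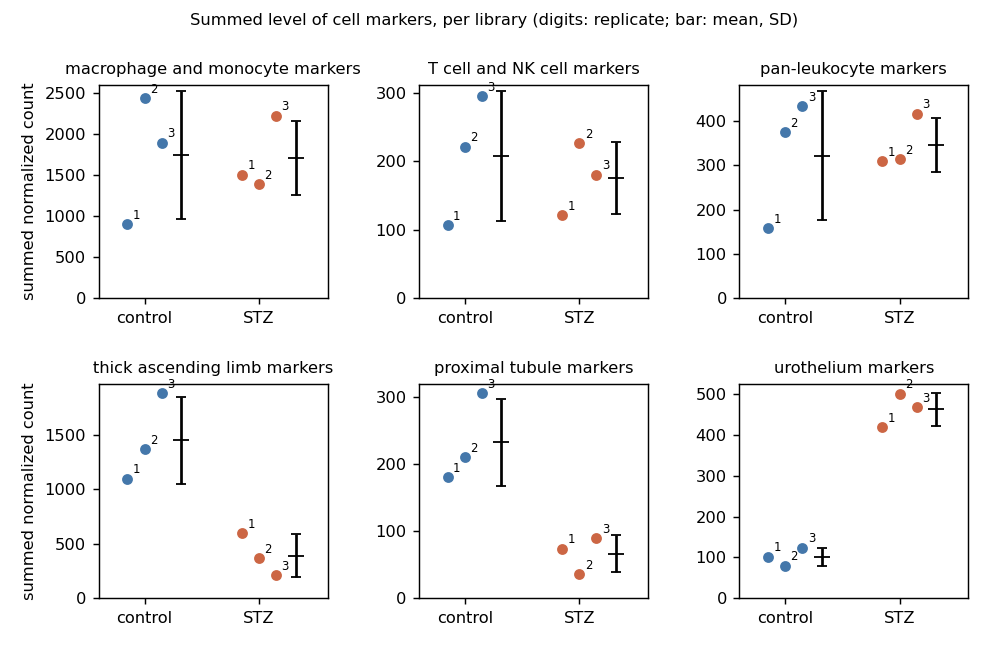
Summed normalized count (y axis, a separate scale from 0 for each panel) of 6 marker lists, 3 for leukocytes (upper row) and 3 for kidney cells (lower row) in control and STZ libraries, numbered by replicate, with the mean and SD beside each group. The macrophage and monocyte, T cell and NK cell and pan-leukocyte sums of the upper row overlap, with replicate 1 lowest among the controls, while thick ascending limb and proximal tubule sums are lower and urothelium sums higher in every STZ library.

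Genes that act above and below the chemokines were examined from 2 lists. Of 40 genes that carry the signal from the receptors (G protein subunits, PI3 kinases, Rac, arrestins and receptor kinases), 28 were tested and 0 were called by limma, edgeR or DESeq2. Over all features these tests called 2.10%, 2.13% and 6.08%. The median log2FC of the tested genes was 0.38, against 0.0056 for all features. Of the 28, 23 were above 0, while 49.5% of all features were below 0. An unadjusted p under 0.05 was found for 6 of the 28 by limma, against 14.7% of all features. Of 39 genes that induce chemokines (cytokines, NF-kB subunits, STAT and IRF factors), 23 were tested and 0 were called by limma or edgeR. By limma 4 of the 23 had an unadjusted p under 0.05, against 14.7% of all features. Those 4 were Irf7, Irf1, Stat2 and Stat3, and DESeq2 called Irf1 and Stat3. Irf7, the amplifier of type I interferon, had 1324, 4294 and 2204 normalized counts in the controls and 448, 1222 and 503 in STZ. Its log2FC was -1.83 (SE 0.44) with an adjusted p of 0.0591 by limma. Irf1, an interferon-induced activator, was at -0.79 (adjusted p 0.112), Stat2 was at -0.61 (0.213) and Stat3, which carries interleukin 6 signals, was at 0.82 (0.0911). The NF-kB subunits Nfkb1 and Rela had log2FCs of 0.35 and 0.27 (adjusted p 0.549 and 0.595). Tnf was at 29.7, 33.6 and 27.8 normalized counts against 26.0, 50.4 and 13.1, while Ifng and Ifnb1 had at most 3 reads and Il6 at most 4. The part of these genes in the chemokine changes was not tested.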

How the data were processed

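Per the submitters' processing notes and the study's methods, reads from 3 control and 3 STZ libraries were aligned to rn4 with STAR 2.3.1t, uniquely mapped reads were counted per gene and DESeq 1.16.0 normalized them. Which program counted the reads, and whether it used strand, was not given in the sources used here. A gene and its antisense partner may therefore share reads, and reads common to near-identical copies were dropped. The deposited signal is the authors' normalized count (a count divided by 1 size factor per library). Dividing by the smallest step gave whole reads for 100.0% of values, within 0.01 of a whole number. Of 27321 features, 2720 lay between genes and 527 merged genes. The cDNA was amplified by PCR without molecular identifiers, so floors of 3 reads cover counting error only.

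Features with a mean of at least 5 were compared on log2(normalized count + 1) with limma 3.58.1 (intensity trend, Benjamini-Hochberg adjustment, threshold 0.05) in R 4.3.3, which understates the change of low genes. Replicates differed by more than sampling noise (chi-square per degree of freedom 10.8 to 15.7). Alternatives were edgeR 4.0.16 (quasi-likelihood, TMM) and DESeq2 1.42.0 on the recovered reads, pseudocounts of 0.5 and 5, minimum means of 1 and 20, no filter, equal totals, quantile normalization, limma without trend or with robust moderation, the replicate block, locus length, and each library left out. Scripts were tested on simulated data. Single values had two-sided exact permutation tests.

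Results of 1 member, which is included in the counts, are not reported here. Every other member, the features within 500 kb of Ccl7 and the called members of 4 lists could be named. Irf7, Irf1, Stat2, Stat3, Cd14, Msr1 and other list genes given with values were named after their values were seen. The members and lists were chosen with earlier results of these data known. Promoters came from RefSeq (GRCr8), and no position was converted between builds. Tables used pandas 2.3.3, numpy 2.4.6 and scipy 1.17.1, and plots matplotlib 3.10.9, in Python 3.11.15.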

Additional observations from a re-analysis of the deposited data

How the results depend on the processing

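Ccl7 kept its direction and its call in all 20 alternatives, and the number of members above background in all libraries of a group ranged from 19 to 23 with a library left out. Of the 24 tested members 3 were called, or 5 with quantile normalization, and 1 (without STZ replicate 2) to 4 (without control replicate 1) with a library left out. Over all features 283 were called, against 597 with DESeq2, 522 with quantile normalization, 31 without the trend and 88 (without STZ replicate 2) to 352 (without control replicate 3) with a library left out. Within 500 kb of Ccl7 the count of 1 became 2 with quantile normalization (Ccl2) and 1 to 2 with a library left out (Ccl12 added without control replicate 1, Accn1 without control replicate 3), and was 1 within 1000 kb. For the inducers list the count of 0 became 2 with DESeq2, 1 at a minimum mean of 20, 1 without a filter, 1 with quantile normalization and 0 to 1 with a library left out (1 without control replicate 1 or STZ replicate 2). For the leukocyte list it became 1 with DESeq2, at a minimum mean of 20 and with quantile normalization. For the kidney list the count of 7 became 1 without the trend and 3 (without control replicate 2) to 7 with a library left out.

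The control and STZ rats share replicate numbers but are different animals. Deviations of same-numbered libraries from their group means correlated with r = 0.39, -0.06 and 0.32 over 9315 features. Not every pair was above 0.1, so the numbers were not taken as a pairing. As a hint from the data, replicates 1 and 3 correlated best with their own number and replicate 2 did not. Control replicate 3 also correlated with STZ replicate 2 (r = 0.22). With the replicate block, 6 members (adding Ccl2, Ccl5 and Cxcr7 at adjusted p 0.0129, 0.0429 and 0.0361), 561 features, 2 features near Ccl7 and 2 inducers were called, and with the block and locus length 5, 482, 2 and 1.

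Some uncalled members changed sign when a library was left out. The log2 fold change then ranged from -0.29 to 0.29 for Ccl19, -1.15 to 0.51 for Ccl25, -0.37 to 1.43 for Cxcl13, -0.20 to 1.02 for Cxcl9, -0.53 to 0.15 for Cxcr3 and -0.53 to 0.077 for Cxcr5. The causes of these differences were not tested. Depth limits the 24 untested members, which had 10 or fewer reads in any library.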

Other observations

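Chemokine-related genes whose names fall outside the rule gave further values, none called by limma. Ccrl2, a non-signalling receptor that presents chemerin, had 27.7, 22.1 and 28.9 normalized counts in the controls and 10.2, 8.90 and 14.1 in STZ. The groups did not overlap, with a log2FC of -1.19 (SE 0.34) and an adjusted p of 0.116. Cmklr1, the signalling receptor of chemerin, was at 26.7, 38.9 and 43.4 against 23.2, 18.8 and 16.1 normalized counts, and these groups were apart too, with a log2FC of -0.86 (SE 0.30, adjusted p 0.199). Cklf, a chemokine-like factor, had a log2FC of -0.75 (adjusted p 0.262), with 134 to 243 normalized counts in the controls and 65.3 to 126 in STZ.

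Pf4, the platelet CXC chemokine, and Mif, a cytokine that binds Cxcr4, had overlapping groups and log2FCs of 0.36 and 0.31. The merged feature of Zmynd15 and Cxcl16, whose reads cannot be assigned to either gene, was at 0.11, and that of Il11ra1 and Ccl27 at -0.41. Ccrl1, an atypical receptor of Ccl19 and Ccl25, was at -0.06. Ppbp and Ccbp2 had at most 1 read.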
